A study of Drosophila melanogaster with 4 samples.

Results

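Central carbon metabolism was followed through 6 enzymes in the heads of Drosophila melanogaster males given vigabatrin (VGB), a drug that blocks GABA transaminase and so the breakdown of the transmitter GABA. The 6 genes are Eno and Gapdh1 of glycolysis, Mdh1 and PCB, which handle malate, oxaloacetate and pyruvate, and the oxidoreductases Adh and Miox. They were chosen by name from a spotted cDNA array that names 6793 genes, with earlier results of the same treatment contrast known. Their values are therefore given as a description, with no test of the members. Of the 13824 probes of the array, each a pair of adjacent duplicate spots, 8 carried 1 of these genes as their only gene. Values existed on at least 3 arrays for 7 of the 8 and on all 4 arrays for 3 of them, against 8.06% and 4.28% of all probes, and the remaining 1 had no value on any array (36.4% of all probes had a value on some array). The members were chosen with these values known, so nothing is read from the shares.

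The flies were Oregon-R wild type males, unmated and 10 to 11 days old, kept in vials of 30. For 3 days the untreated group stayed on normal food (NF) and the treated group on the same food with VGB at 24 mg/ml. Each of 4 arrays set 1 pool of treated heads against 1 pool of untreated heads, with VGB labelled in Cy5 (red) on replicates 1 and 2 and in Cy3 (green) on replicates 3 and 4. The pools were whole heads, so brain, eye, fat body and muscle RNA were measured together, and fewer cells of a type cannot be told apart from less RNA per cell.

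Glycolysis splits glucose into pyruvate and yields ATP and NADH, and the tricarboxylic acid (TCA) cycle oxidises the carbon further in mitochondria. Pyruvate carboxylase refills the cycle with oxaloacetate, and malate dehydrogenases move reducing power between cytosol and mitochondria. GABA broken down by GABA transaminase enters the same cycle as succinate. In the fly brain, glia are strongly glycolytic and pass fuel to neurons, and the fat body of the head is a main site of lipid and alcohol metabolism.

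The arrays carried values for 2822, 1280, 1517 and 3231 probes on replicates 1 to 4, after the authors' quality filters, and 1114 probes were measured on 3 or 4 arrays and are the ones tested. All values below are log2 ratios of VGB over NF minus the array's median. The medians removed, 1.04, 1.03, 0.51 and 0.44, were not 0. The sources used here do not say whether the deposited ratio on the dye-swapped replicates 3 and 4 is Cy5 over Cy3 or VGB over NF. In the main coding it is read as Cy5 over Cy3 and the sign of these arrays is turned. In the other coding it is not turned, and the mean of each member is given under both. The log base is also not stated and is taken as 2. The head label could be checked only by which markers had values. At least 1 value existed for 5 of 9 photoreceptor and 2 of 6 neuronal markers. For glial, fat body and muscle markers it existed for 3 of 5, 3 of 8 and 2 of 8. A probe with a single gene name existed for 6, 2, 3, 7 and 4 of these markers, in the same order. The markers elav, repo, ninaE and Mhc had no such probe. Of all probes on the array, 36.4% had some value.

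In the main coding all 7 member probes with values had means below 0, from -0.68 for Eno to -0.08 for Gapdh1 probe 2, against 61% of all tested probes. With the other coding 2 of the 7 were below 0, against 36% of all. The median of the 7 means was -0.46 in the main and 0.22 in the other coding, beside -0.04 and 0.07 over all 1114 probes. Limma (a moderated test of the mean over arrays, Benjamini-Hochberg adjusted p under 0.05) called 4 of the 1114 probes in the main coding (0.359%) and 0 in the other (0%). At an unadjusted p under 0.05, limma had 94 probes in the main coding and 156 in the other, or 8.44% and 14.0% of the probes tested.

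**Figure D1:**
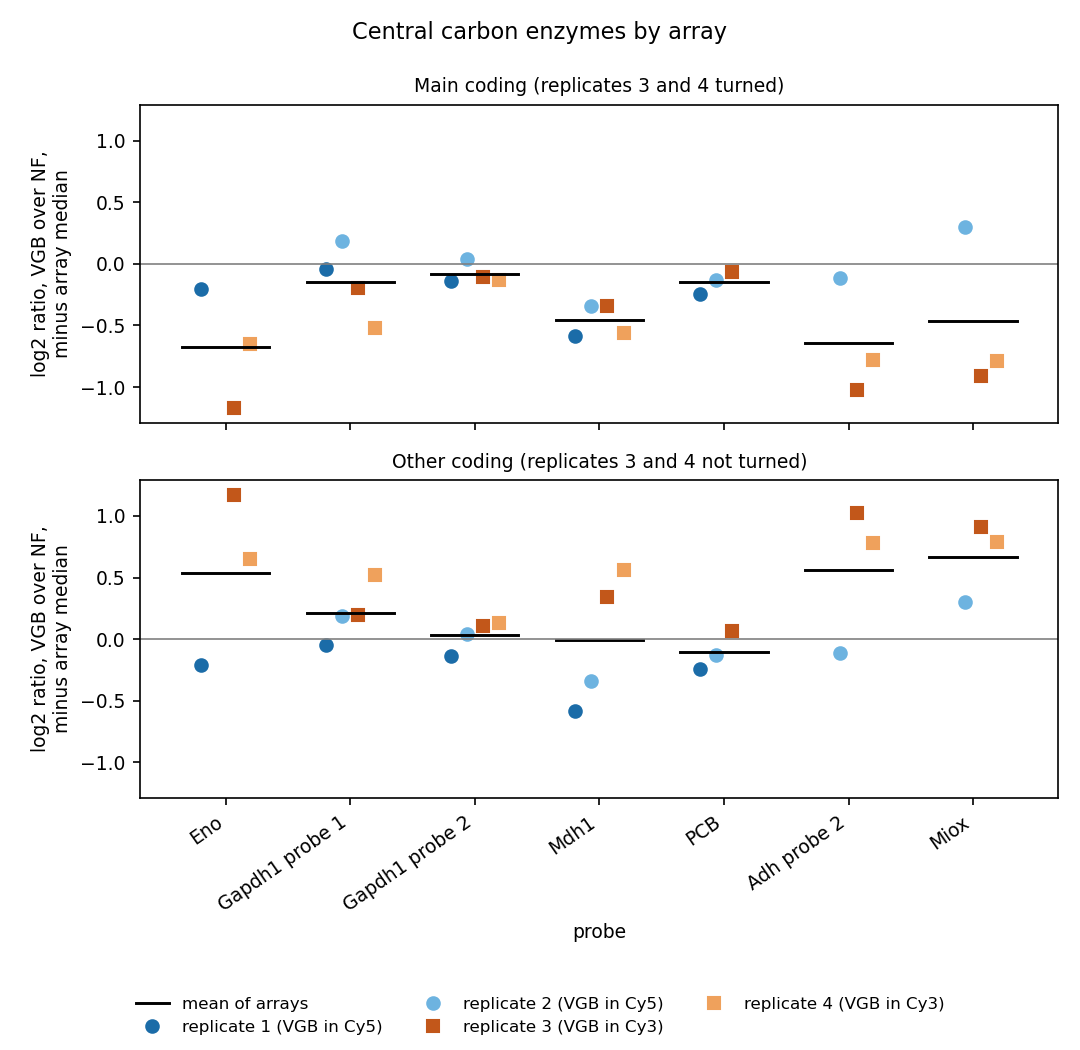
Log2 ratio of VGB over NF minus the array median (vertical axis) for the 7 member probes with values (horizontal axis), one point per array, with the mean of the arrays as a black line. In the main coding (top) the 4 Mdh1 points lie between -0.58 and -0.34, and in the other coding (bottom) they split around 0, while the 3 Miox points come together above 0, at 0.30 to 0.91.

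Eno, enolase, which turns phosphoglycerate into phosphoenolpyruvate near the end of glycolysis, had values on 3 arrays. They were -0.21 on replicate 1, -1.17 on replicate 3 and -0.65 on replicate 4 in the main coding, with none on replicate 2. All 3 arrays lay below 0, and the dye-swapped arrays lay lower than replicate 1. The mean was -0.68 ± 0.48 (SD, n = 3), or 62.6% of the NF level, the eighth lowest of the 1114 means. Under the other coding the same arrays read -0.21, 1.17 and 0.65, with a mean of 0.54 ± 0.70 (SD, n = 3), or 145% of NF. The sign of the Eno mean thus follows the coding, since replicate 1 is the only one of its arrays whose direction does not depend on it.

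The duplicate spots of Eno differed more than usual on the dye-swapped arrays. On replicate 3 the 2 spots read -1.49 and -0.85, and on replicate 4 they read -0.40 and -0.90. Both gaps, 0.64 and 0.50, were above the 90th percentile of such gaps on their arrays (0.44 on each). Every Eno spot on these arrays was nevertheless on the same side of 0. On replicate 1 the spots read -0.44 and 0.03, on both sides of 0, a gap of 0.47 against a 90th percentile of 0.93 there. Over all pairs, duplicate spots correlated least on replicate 1 (Pearson r 0.23, against 0.64, 0.82 and 0.65 on replicates 2 to 4).

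Gapdh1 encodes a glyceraldehyde phosphate dehydrogenase, the NADH-forming step of glycolysis, and was printed as 2 probes. Probe 1 read -0.04, 0.18, -0.20 and -0.52 on replicates 1 to 4 in the main coding, with a mean of -0.15 ± 0.30 (SD, n = 4). Probe 2 read -0.14, 0.04, -0.11 and -0.13, with a mean of -0.08 ± 0.08 (SD, n = 4). Both probes were above 0 on replicate 2 alone, and they differed most on replicate 4. Without the turn of replicates 3 and 4 the means were 0.22 ± 0.23 and 0.03 ± 0.12 (SD, n = 4). With the turn but without the medians removed, they were 0.13 and 0.20.

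The replicate 4 value of Gapdh1 probe 2 came from unlike spots, 0.22 and -0.48, a gap of 0.70. Its second spot lay close to the probe 1 value on that array, and its first spot did not. The paralog Gapdh2 had no probe with a single gene name, and how far the Gapdh1 spots also bound Gapdh2 RNA was not tested.

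**Figure D2:**
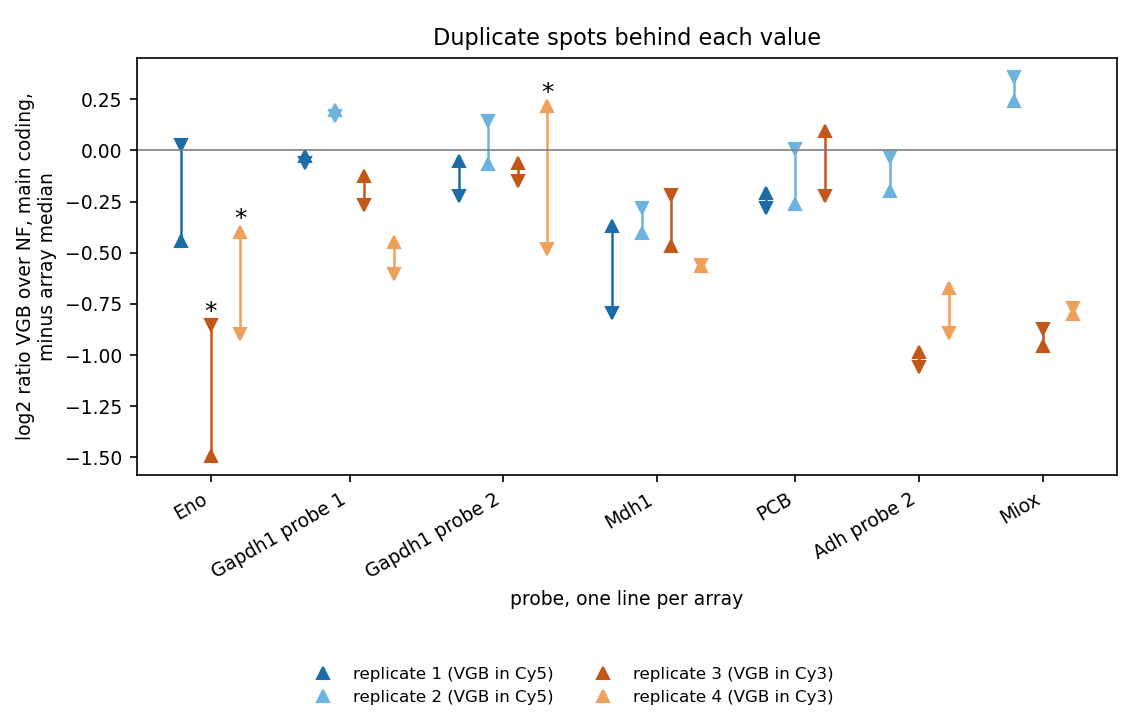
The duplicate spots behind each member value, as log2 ratio of VGB over NF in the main coding minus the array median (vertical axis). Upward triangles are the first spot, downward triangles the second, a line joins the spots of one array, and a star marks the 3 of 24 pairs whose gap is above the 90th percentile of that array: Eno on replicates 3 and 4 and Gapdh1 probe 2 on replicate 4.

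Mdh1, the cytosolic malate dehydrogenase of the malate-aspartate shuttle, had ratios of like size on every array in the main coding. Its values were -0.58, -0.34, -0.34 and -0.56 on replicates 1 to 4, below 0 on 4 of 4 arrays. The mean was -0.46 ± 0.13 (SD, n = 4), or 72.9% of NF, which ranked 39 from the lowest of 1114. The 2 dye orders gave nearly the same mean, -0.46 with VGB in Cy5 and -0.45 with VGB in Cy3. Under the other coding these cancelled to -0.01 ± 0.54 (SD, n = 4), since replicates 1 and 2 stayed below 0 and replicates 3 and 4 moved above it. As deposited, with the array medians left in, the main-coding mean was -0.18.

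Within the arrays Mdh1 stood nearer an edge on replicates 1 and 4 than on replicates 2 and 3. By Cy5 over Cy3 ratio, 93.8%, 81.5%, 17.9% and 7.27% of the probes on replicates 1 to 4 were higher than Mdh1. On replicates 1 and 2 its mean Cy5 over Cy3 ratio ranked 38 from the lowest of 826 probes measured on both, and on replicates 3 and 4 it ranked 168 from the highest of 1177. Every Mdh1 spot was below 0 in the main coding, the widest pair being -0.37 and -0.80 on replicate 1. Mdh2, the mitochondrial enzyme, had no probe with a single gene name.

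PCB, pyruvate carboxylase, which makes oxaloacetate from pyruvate in mitochondria, had small ratios on 3 arrays. They were -0.25, -0.13 and -0.07 on replicates 1, 2 and 3 in the main coding, with no value on replicate 4. The mean was -0.15 ± 0.09 (SD, n = 3), and every PCB value lay above every Mdh1 value. The other coding gave a mean of -0.10 ± 0.16 (SD, n = 3), with replicate 3 above 0. PCB was the member whose mean moved least between the codings, but replicate 3 was its only array that the coding turns. The other member probes with values had both dye-swapped arrays. As deposited the PCB mean stood at 0.37 in the main coding, opposite in sign.

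Adh, the alcohol dehydrogenase that oxidises ethanol and is abundant in fat body, was printed as 2 probes, of which probe 1 had no value on any array. Probe 2 read -0.11, -1.02 and -0.78 on replicates 2, 3 and 4 in the main coding, with none on replicate 1. Replicate 2 was close to 0 and the dye-swapped arrays were far from it. The mean was -0.64 ± 0.47 (SD, n = 3), the eleventh lowest of 1114, and 0.56 ± 0.60 (SD, n = 3) in the other coding, the eighth highest. Its duplicate spots lay within 0.22 of each other on each array. The gene table lists Adhr, a related gene, over the same span as Adh, and Adhr had no probe of its own with a single gene name, so the Adh spots may hold sequence of both, which was not tested.

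Miox, named for the inositol oxygenase that in mammals opens myo-inositol to glucuronate, was measured on the same 3 arrays as Adh. In the main coding it read 0.30, -0.91 and -0.78 on replicates 2, 3 and 4, so its arrays fell on both sides of 0. The mean was -0.47 ± 0.67 (SD, n = 3), with an SD that ranked 1093 from the smallest of 1114. Under the other coding the values were 0.30, 0.91 and 0.78, all above 0, with a mean of 0.67 ± 0.32 (SD, n = 3), or 159% of NF, the third highest of 1114. Its duplicate spots lay within 0.12 of each other on each array.

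No single coding gave every member 1 sign on all its arrays. In the main coding Eno, Mdh1, PCB and Adh were below 0 on every array measured, where 13.7% of all tested probes were, and none was above 0 on every array (5.48% of all). With the other coding Miox alone was above 0 on every array (19.9% of all), and none was below 0 on every array (8.35% of all). Mdh1 was therefore on 1 side of 0 in the main coding and split in the other, and Miox the reverse.

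Eno, Adh and Miox kept company on the dye-swapped arrays. Their mean Cy5 over Cy3 ratios over replicates 3 and 4 were 0.91, 0.90 and 0.85, which ranked 10, 12 and 18 from the highest of 1177 probes. On replicate 3, 0.198% of the array's probes were higher than Eno, 0.659% higher than Adh and 1.05% higher than Miox. On replicate 4 these shares were larger, at 4.83%, 2.20% and 2.07%. With VGB in Cy5 the same genes had 1 array each, at -0.21, -0.11 and 0.30. Because 2 of their 3 arrays share a dye order, a dye effect does not cancel in their plain means. With each dye order weighted equally the means were -0.56, -0.51 and -0.27 in the main coding and 0.35, 0.39 and 0.57 in the other, so the sign turned with the coding for all 3 genes. Dye and treatment cannot be told apart on replicates 3 and 4 alone.

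**Figure D3:**
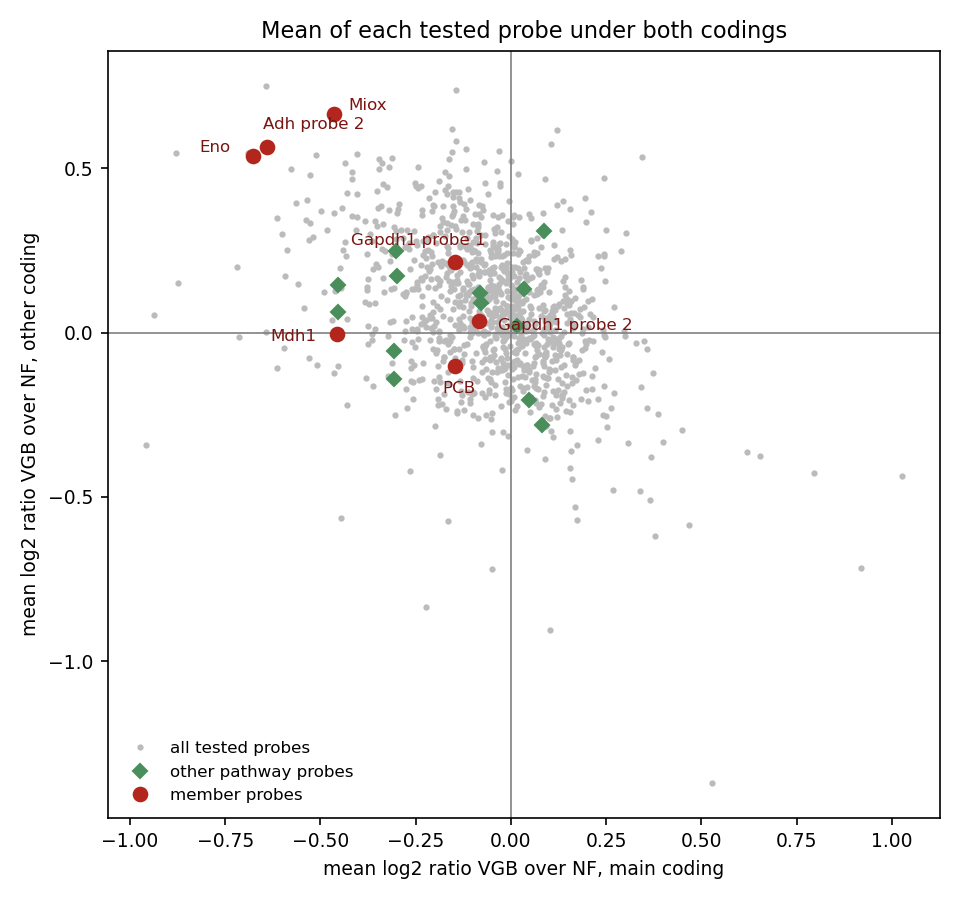
Mean log2 ratio of VGB over NF minus the array median for each of the 1114 tested probes in the main coding (horizontal axis) and the other coding (vertical axis), with member probes in red and 13 other pathway probes in green. Eno, Adh and Miox lie at the upper left, at -0.68, -0.64 and -0.47 against 0.54, 0.56 and 0.67, Mdh1 lies on the horizontal axis at -0.01, and PCB and Gapdh1 lie within the grey cloud.

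The other enzymes of these pathways were then taken from lists of 68 genes that left the members out. A probe with a single gene name existed for 36 of them, 24 had some value, and 12 were tested, through 13 probes. Limma called 0 of the 12 higher and 0 lower in the main coding, beside 0.0898% and 0.269% of all probes, with adjusted p from 0.249 to 0.997. At an unadjusted p under 0.05 in the main coding there were 3 of the 13 probes, beside 8.44% of all probes tested. They were those of AcCoAS and Taldo and UGP probe 2. In the other coding these had means of 0.06, 0.15 and -0.14 (limma adjusted p = 0.904, 0.727 and 0.692). The other coding gave 0 calls as well, with a smallest adjusted p of 0.287. The median of the 13 means was -0.08 in the main coding and 0.09 in the other.

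In glycolysis 4 further genes were tested. Hex-A, a hexokinase, which primes glucose, read 0.37, 0.42, -0.16 and -0.29 on replicates 1 to 4, with a main-coding mean of 0.09 ± 0.36 (SD, n = 4). Unturned, it was above 0 on all 4 arrays, at 0.31 ± 0.12 (SD, n = 4), as Miox was on its 3. Ald1, an aldolase, had -0.08 ± 0.31, Tpi, triosephosphate isomerase, 0.08 ± 0.58, and Pgk, phosphoglycerate kinase, 0.05 ± 0.36 (SD, n = 4 each). With the other coding these stood at 0.09, -0.28 and -0.20. The glycolytic genes on at least 3 arrays thus spread on both sides of 0 in either coding, and none had the size of Eno.

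Around pyruvate and the TCA cycle 3 genes were tested. AcCoAS, the acetyl-CoA synthetase that activates acetate, read -0.40, -0.38, -0.34 and -0.70, with a mean of -0.45 ± 0.17 (SD, n = 4; limma adjusted p = 0.249). Like Mdh1 it was below 0 on 4 of 4 arrays in the main coding and near 0, at 0.06, in the other. Mpc1, a subunit of the mitochondrial pyruvate carrier, had -0.30 ± 0.41 (SD, n = 3), and SdhB, the iron-sulfur subunit of succinate dehydrogenase, 0.02 ± 0.46 (SD, n = 4). Their means in the other coding stood at 0.17 and 0.02.

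The pentose phosphate pathway, which makes NADPH and ribose, had 2 tested genes. Taldo, transaldolase, read -0.37, -0.25, -0.43 and -0.77, with a mean of -0.45 ± 0.22 (SD, n = 4; limma adjusted p = 0.249). CG8036 of the same list had -0.30 ± 0.30 (SD, n = 4), with replicate 2 above 0 at 0.04. The other coding put these means at 0.15 and 0.25.

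For glycogen, trehalose and polyols 3 genes were tested. UGP, which makes UDP-glucose, had 2 probes that differed, -0.31 ± 0.19 (SD, n = 4) for probe 2 and -0.08 ± 0.20 (SD, n = 3) for probe 1. Treh, trehalase, which splits the blood sugar of the fly, had 0.03 ± 0.26 (SD, n = 4). Sodh1, a sorbitol dehydrogenase, was below 0 on its 3 arrays, at -0.31 ± 0.16 (SD, n = 3). The other coding put UGP probe 2, UGP probe 1, Treh and Sodh1 at -0.14, 0.12, 0.13 and -0.05.

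**Figure D4:**
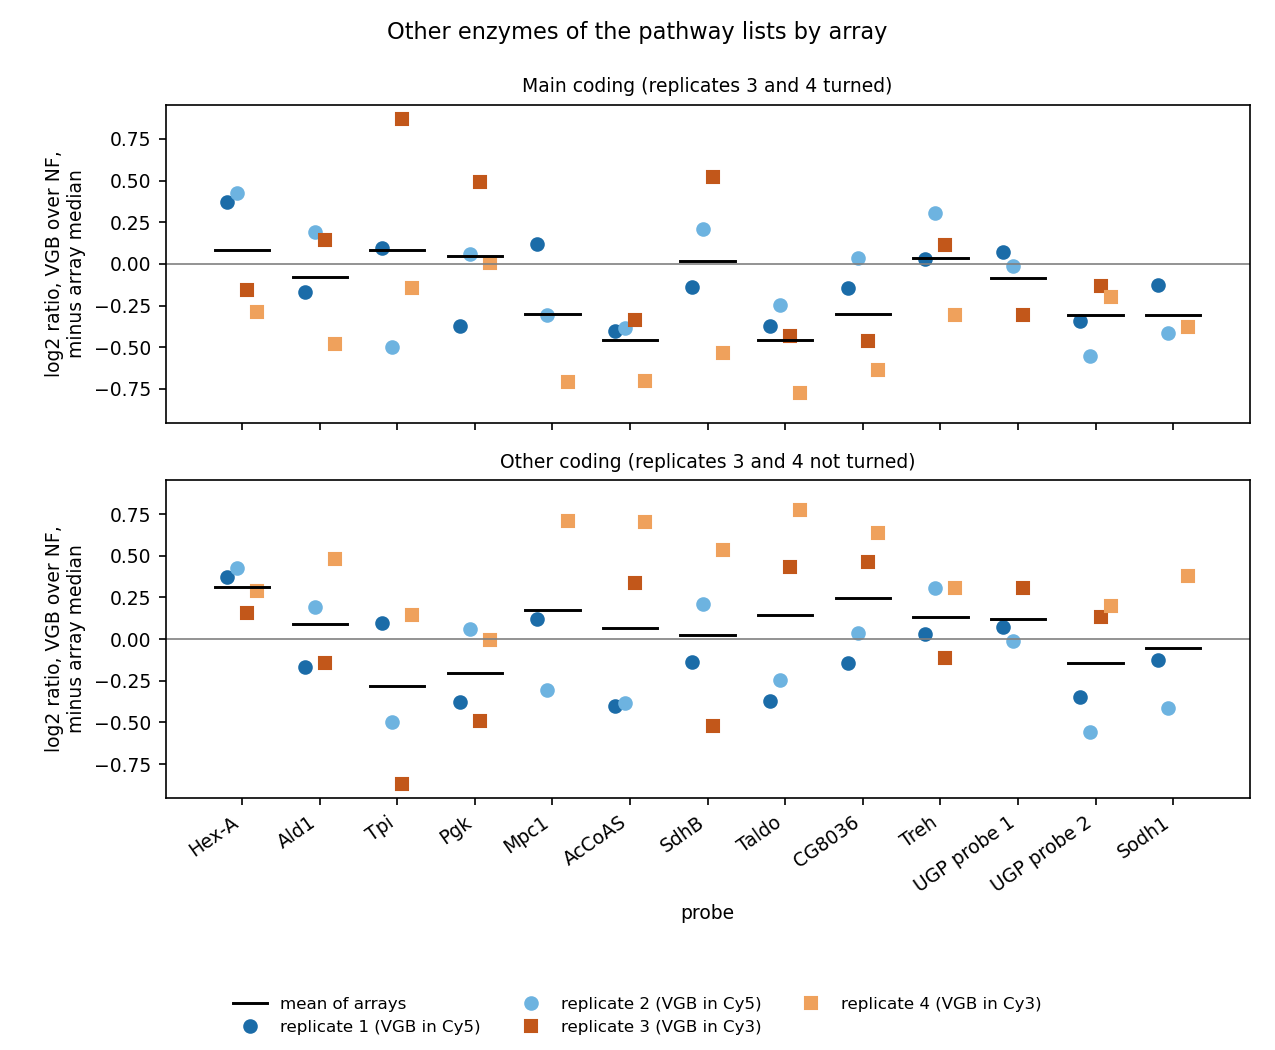
Log2 ratio of VGB over NF minus the array median (vertical axis) for 13 probes of 12 other enzymes (horizontal axis), one point per array and the mean as a black line, in the main coding (top) and the other coding (bottom). AcCoAS and Taldo lie below 0 on 4 of 4 arrays in the main coding and on both sides of 0 in the other, and Hex-A lies above 0 on 4 of 4 arrays in the other coding only.

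The genes most like each member were found by the root-mean-square difference over the member's arrays, which is the same in either coding. For Mdh1 the nearest of 311 named probes on 4 arrays were Cyp28d1, a cytochrome P450, at 0.12, AcCoAS at 0.12 and Desat1, a fatty acid desaturase, at 0.15. FASN1, a fatty acid synthase, was nearest to both Eno (0.17 over 3 arrays) and Adh (0.13 over 3 arrays). It read -0.07, -0.27, -0.92 and -0.67 on replicates 1 to 4 in the main coding. CG11400 was also among the 3 nearest of both, at 0.27 and 0.19, with a probe of apolpp at 0.23 beside Eno and Jon65Aiv at 0.19 beside Adh. The other apolpp probe was not among the nearest to Eno. It read -0.61, -0.105 and -0.91 on replicates 1, 3 and 4 in the main coding.

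Miox had other neighbours. RpL27, a ribosomal protein gene, was nearest at 0.16 over 3 arrays, then Grx1 at 0.19 and eEF5 at 0.21. RpL27 read 0.51, -0.74 and -0.72 on replicates 2, 3 and 4, with replicate 2 above 0 as for Miox. Gapdh1 probe 1 lay nearest to ATPsynC, Nacalpha and CG9396 (0.10 to 0.11 over 4 arrays), Gapdh1 probe 2 to nrv1, MED26 and GlcAT-P (0.05 to 0.08), and PCB to Cals, CG12016 and SAK (0.06 to 0.09 over 3 arrays). The near MED26 probe had a mean of -0.07 in the main coding, and the other tested probes of MED26 had means of 0.01 and 0.04.

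Markers of head tissues were set beside these values. Of 8 fat body markers 3 had values, and of these apolpp alone, the lipoprotein precursor, was tested. Its 2 probes were below 0 on 4 of 4 arrays in the main coding, at means of -0.61 and -0.64, and stood at -0.11 and 0.00 in the other. The 2 probes differed on single arrays, at -0.105 and -0.82 on replicate 3 in the main coding. Lsp2 and Fbp2 had 1 array each, replicate 4, at -0.67 and -0.07 in the main coding and with the opposite sign in the other. The 4 photoreceptor markers on at least 3 arrays had a median of -0.16 in the main coding and 0.29 in the other. Arr1 among them read 0.89, -0.76 and -0.57 on replicates 2, 3 and 4, the order of signs seen for Miox. The same order held for the other tested photoreceptor markers, trpl, inaD and Pdh, and for both Gapdh1 probes. Of these, inaD was close to 0 on replicates 2 and 3. The order amounts to values above 0 on replicates 2, 3 and 4 in the other coding. In that coding 19.9% of all tested probes were above 0 on every array measured. ATPsynC, Nacalpha, CG9396, RpL27, Grx1 and eEF5 had the order too, so no link between genes is read from it. The glial marker Gs2 had a mean of -0.04, and the muscle markers Mlc2 and Act88F 0.22 and -0.01, in the main coding. Their means in the other coding were 0.08, -0.03 and 0.24. No neuronal marker was tested. The part of tissue makeup in the members' values was not tested.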

How the data were processed

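The deposited values are log2 ratios (base assumed) of the dyes of each array, 1 value per spot. Per the labels' series design text, the authors quantified scans with GenePix Pro 6.0 and ratio-normalized them in Acuity 4.0. They filtered spots on raw intensity (minimum 100), saturation (below 3% of pixels), flags, region R2 (0.6 or more) and signal over noise (3 or more). Their own test, one-class SAM, was not rerun here. No intensities were used, so depth is unknown and the number of arrays limits the precision.

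Duplicate spots were averaged, each array's median over its probes was subtracted, and replicates 3 and 4 were turned (main coding) or not (other coding). Probes with values on at least 3 arrays were fitted with limma 3.58.1 in R 4.3.3 (lmFit, eBayes, intercept only, two-sided, Benjamini-Hochberg over 1114 probes). The fit was tried on simulated data with independent normal noise and no dye effect. Such data cannot show how the fit handles a dye effect or a wrong coding. Names are those of the platform annotation in GEO, updated by gene identifier for 7447 of 7558 single-gene probes through a Release 6 gene table; 51 probes had several genes and 6215 none listed. Positions are left out. Named genes were every member, each pathway gene on at least 3 arrays, and the 3 nearest genes per member. Photoreceptor, neuron, glia, fat body and muscle marker lists were used. The members, lists and rules were chosen with earlier results of these data known. The design text calls the 4 sets biological replicates.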

Additional observations from a re-analysis of the deposited data

How the results depend on the processing

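The count of 4 called probes was 0 in the other coding, as deposited, with quantile normalization and with at least 2 arrays, 1 with each printed block centred, 2 on probes with all 4 arrays, 8 with medians over the tested probes only and 27 with dye order as a term. Leaving out 1 array in the main coding gave 0 to 23, 0 without replicate 4 and 23 without replicate 2. Pathway calls were 0 throughout except 2 (AcCoAS and Taldo, both lower) with the dye term. Leaving out 1 array gave 0 pathway calls. The cause of these shifts was not tested.

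As deposited, the median over all tested probes moved from -0.04 to 0.20. Of 94 recomputed member means, 83 stayed within 1 SD of the probe's own arrays. Many of these could not move that far. Leaving out 1 array or weighting the dye orders equally cannot shift a mean by the SD of its own arrays. Changing the number of arrays required or adding the dye term leaves a member mean as it was. The count of 83 is therefore no measure of stability. The other coding moved the mean of every member probe except PCB by more than that SD, and PCB had no value on replicate 4 to turn. Single spots moved Gapdh1 probe 2 to 0.01 and -0.18. In the main coding, means with 1 array left out ran from -0.50 to -0.42 for Mdh1 and from -0.91 to -0.43 for Eno. They ran from -0.90 to -0.45 for Adh and from -0.85 to -0.24 for Miox. For Eno, Adh and Miox only 2 arrays remained once a measured array was dropped. The lowest mean of each of these genes was that of the dye-swapped arrays alone. Gapdh1 probe 1 was -0.02 without replicate 4. The equal weighting of dye orders was chosen after seeing the data. Each ratio already sets 1 treated against 1 untreated pool of the same array, so the limma test of the mean ratio keeps that pairing. There is 1 group of ratios, and no further pairing was used.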
